A study of Mus musculus with 13 samples.

Results

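Imprinted genes were followed through spontaneous immortalization of mouse embryonic fibroblasts (MEFs). The set held 41 of the 55487 genes in the deposited count tables, chosen by name as genes with known parental-origin expression and arranged in 19 imprinted clusters. Of these, 22 are known to be transcribed from the paternal copy, 13 from the maternal copy and 6 with an imprint limited to an isoform or a tissue. Poly-A RNA was sequenced from 13 libraries. The WT libraries came from primary MEFs of clones 3, 4 and 5, grown from 3 different embryos, and from 1 immortalized line of each clone. The other 7 libraries were labelled Prkd3-/- and came from primary MEFs of clones 13, 14 and 15 and from immortalized lines 13, 13a, 14 and 15. All cultures were grown in 10% fetal calf serum. For immortalization it was raised to 20% once the cells had become senescent, and each line was established from colonies that appeared afterwards. The paper states that its WT lines, once immortalized, were expanded and grown with 10% serum again. The relation of 13a to 13 was taken only as a shared clone number, and no source used here says how the Prkd3 allele was made. Library totals ranged from 35273408 to 100441756 counts. The gene Prkd3 was still counted, at 33.4 to 60.0 CPM (counts scaled to library size) in the libraries labelled Prkd3-/- and at 68.4 to 95.5 CPM in WT libraries, and genotype and count table cannot be told apart, so genotypes were compared only through their immortalization effects.

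Imprinted genes are transcribed mainly or wholly from 1 parental copy, which is marked by DNA methylation laid down in the egg or sperm and kept through later divisions by factors such as ZFP57, ZFP445, TRIM28 and DNMT1. Many sit in clusters under a shared control region, and they are best known for fetal growth, for which paternally expressed genes such as Igf2 act as promoters and maternally expressed genes such as Igf2r, Grb10 and Cdkn1c as brakes. Counts per gene cannot separate the parental copies, so a low level can come from either copy and a level near the primary one says nothing about the imprint. In bulk RNA, fewer cells of a type and less RNA per cell also cannot be told apart.

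The promoters of Zdbf2, Mest and Nap1l5 are shown as examples of the members that carry TGCCGC, the core motif bound by ZFP57. That factor reads the motif in its methylated form. These 3 genes lay at least 4-fold below the primary mean in 6, 3 and 4 of the 7 lines (with Mest at least 4-fold above in 1). RefSeq windows (GRCm38.p6, 250 bases before to 50 bases after the start) were matched for 33 of the 41 members and searched on both strands. A symbol with more than 1 window was counted if any of them held a match. Shares were not adjusted for the number of windows or for base composition, and no enrichment was tested. TGCCGC was present in 11 of the 33 (33.3%) and in 13.1% of all 27025 symbols with a window. The 11 were Grb10, Igf2, Mcts2, Meg3, Mest, Nap1l5, Nnat, Plagl1, Snrpn, Zdbf2 and Zim1. Of these, Grb10, Mcts2, Plagl1 and Snrpn lay at least 4-fold below the primary mean in no line, and the others in at least 1. Among all 38 members tested in both genotypes, with the motif or not, 23 did so in at least 1 line. A link between motif and level was not tested. GGGGCCCC, a motif of the imprinted factor PLAGL1, was present in 4 of the 33 (12.1%, Peg3, Usp29, Ppp1r9a and Rasgrf1) and in 1.25% of all symbols. Peg3 and Usp29 start head to head, so their windows overlap. The 250 bases before the start are printed 5′ to 3′ on the strand of the gene, with TGCCGC or its complement GCGGCA in capitals.
Zdbf2 (chr1:63200108-63200357, plus strand): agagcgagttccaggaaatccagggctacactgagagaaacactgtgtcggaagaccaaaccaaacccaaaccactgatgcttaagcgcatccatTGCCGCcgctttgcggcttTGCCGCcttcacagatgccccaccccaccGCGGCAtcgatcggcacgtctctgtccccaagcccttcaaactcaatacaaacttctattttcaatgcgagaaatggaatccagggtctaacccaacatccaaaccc
Mest (chr6:30737800-30738049, plus strand): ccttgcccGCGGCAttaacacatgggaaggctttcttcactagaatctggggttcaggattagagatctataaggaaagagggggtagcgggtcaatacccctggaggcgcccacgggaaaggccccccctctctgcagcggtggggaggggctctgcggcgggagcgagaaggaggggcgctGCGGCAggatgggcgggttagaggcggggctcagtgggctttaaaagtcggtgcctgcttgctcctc
Nap1l5 (chr6:58907127-58907376, minus strand): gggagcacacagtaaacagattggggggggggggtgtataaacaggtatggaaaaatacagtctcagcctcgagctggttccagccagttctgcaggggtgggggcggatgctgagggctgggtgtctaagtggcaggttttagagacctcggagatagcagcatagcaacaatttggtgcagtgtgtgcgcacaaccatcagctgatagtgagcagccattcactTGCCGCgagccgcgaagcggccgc
The Zdbf2 window holds 3 matches and belongs to a start 72.9 kb upstream of the first exon counted for the gene. Its last bases lie in an exon of the noncoding gene Platr12. The Mest window holds 2 matches and lies in an intron of the longest Mest transcript, and the Nap1l5 window holds 2, of which 1 is in the bases printed, and lies in an intron of Herc3, the host gene of Nap1l5. A match describes letters in these windows and not binding or methylation, neither of which was measured.

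Per length of exon, H19 and Igf2 were the most highly expressed members, with mean FPKM (CPM divided by exon length in kilobases) of 617 and 184 over the 13 libraries. They were followed by Gnas (116), Grb10 (86.5), Igf2r (63.9), Mest (57.9), Dlk1 (36.5) and Ndn (27.2). At the lower end, Usp29, Ascl2, Kcnq1ot1 and Rasgrf1 lay under 0.066 FPKM. After the filter on low counts, 38 members were tested in WT (not Phlda2, Ascl2 and Rasgrf1) and 39 in Prkd3-/- (not Phlda2 and Ascl2).

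Only Zdbf2 passed the thresholds (edgeR quasi-likelihood test, adjusted p under 0.01 and absolute Log2FC of at least 1) in WT lines, where it fell, against 361 of the 19836 genes tested (1.82%; 1.76% lower). In Prkd3-/- lines no gene passed, of 20298 tested (0%), and no member did. There, 5 members had an unadjusted edgeR p under 0.05 (6.56% of all genes), 1 member (Zdbf2) passed with DESeq2, lower (0.552% of all genes, 0.473% lower), and none with limma. Shares given for DESeq2, here and below, have a wider base than those for edgeR. They are over all genes with a DESeq2 p, without the filter on low counts (33349 in WT and 34447 in Prkd3-/-). The members were split evenly in direction. In WT, 20 had a negative and 18 a positive Log2FC, with a median of −0.13 beside 0.04 over all genes, and in Prkd3-/- 20 were negative and 19 positive, with a median of −0.00 beside 0.07. Scaled by library size alone, the median over all WT genes shifted to −0.10 and that of the members to −0.27, with 23 negative and 15 positive. In WT, 9 members had an unadjusted edgeR p under 0.05 (19.7% of all genes), and Magel2 passed with Zdbf2 at an adjusted p under 0.05 (4.38%). DESeq2 passed 7 members in WT (4.08% of all genes), namely Zdbf2, Peg3, Usp29, Magel2, Nap1l5 and Herc3 lower (3.71%) and Asb4 higher (0.375%). Without WT line 3 edgeR passed 5 members (Zdbf2, Herc3, Igf2, Cdkn1c and Dio3; 2.65% of all genes) and without WT line 4 it passed 4 (Zdbf2, Mest, Zim1 and Usp29; 1.77%).

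Markers of other cell types moved with state as well. The summed level of 10 macrophage markers was 751 to 783 CPM in WT primary libraries and 33.2 to 94.2 CPM in WT lines, with 10 of 10 lower in every line, 7 past the thresholds and none at 0. For Prkd3-/- the sum was 96.4 to 1048 CPM in primary libraries and 10.4 to 164 CPM in lines. The 10 fibroblast markers summed to 56399 to 59090 CPM in WT primary libraries and 41019 to 96782 CPM in WT lines, and to 32956 to 53851 and 30012 to 44759 CPM in Prkd3-/-. Markers of endothelium (5 genes, 11.5 to 16.2 and then 0.382 to 1.98 CPM), skeletal muscle (5, 22.2 to 25.9 and 0.742 to 7.30) and epithelium (5, 2.31 to 2.65 and 0.182 to 0.483) were lower in WT lines. Those of chondrocytes (5, 187 to 243 and 76.9 to 739), neurons (5, 116 to 121 and 60.6 to 193) and hepatoblasts (5, 2.24 to 2.73 and 1.01 to 9.90) overlapped. Such sums follow their most abundant genes, and single markers differed. Of 4 chondrocyte markers tested in WT, 2 were lower in every line (15.7% of all genes). Of 3 neuronal ones, 1 was lower and 1 higher in every line. The 10 fibroblast markers had 4 negative and 6 positive Log2FC in WT. In Prkd3-/- the sums were lower in every line for skeletal muscle (4.37 to 27.7 and then 0.111 to 0.918 CPM) and neurons (122 to 159 and 13.9 to 96.9 CPM) and overlapped for the other 4, with endothelium at 1.502 CPM in line 13 beside 13.2 to 17.5 CPM in the other lines. The part of these cells in the levels of imprinted genes was not tested.

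Different members were low in different lines. Of the 38 members tested in both genotypes, 23 lay at least 4-fold below the primary mean of their genotype in at least 1 of the 7 lines, beside 20.0% of all genes, and 14 lay at least 4-fold away in no line, beside 77.5% of all genes. These ratios were taken on the log2 CPM scale with a prior count of 1, so they depend on that count where a line held few reads. Zdbf2, Igf2 and H19 lay at least 4-fold below in 5 or more lines, as did 3.70% of all genes. The number of members at least 4-fold below was 8 in WT line 3 (10.4% of all genes), 10 in line 4 (8.88%) and 12 in line 5 (6.33%). The Prkd3-/- numbers were 20 of 39 in line 13 (13.5% of all genes), 0 in line 13a (2.18%), 7 in line 14 (6.73%) and 8 in line 15 (7.24%). Gains of 4-fold were fewer. In WT they were seen for no member in line 3 (0.948% of all genes), for Asb4 and Mest in line 4 (0.625%) and for Slc22a18 in line 5 (1.52%). In Prkd3-/- they were seen for Ppp1r9a in line 13 (1.22%), Dio3, Magel2 and Rasgrf1 in line 13a (1.37%), Rasgrf1 in line 14 (3.31%), and Usp29 and Rasgrf1 in line 15 (1.33%).

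**Figure D1:**
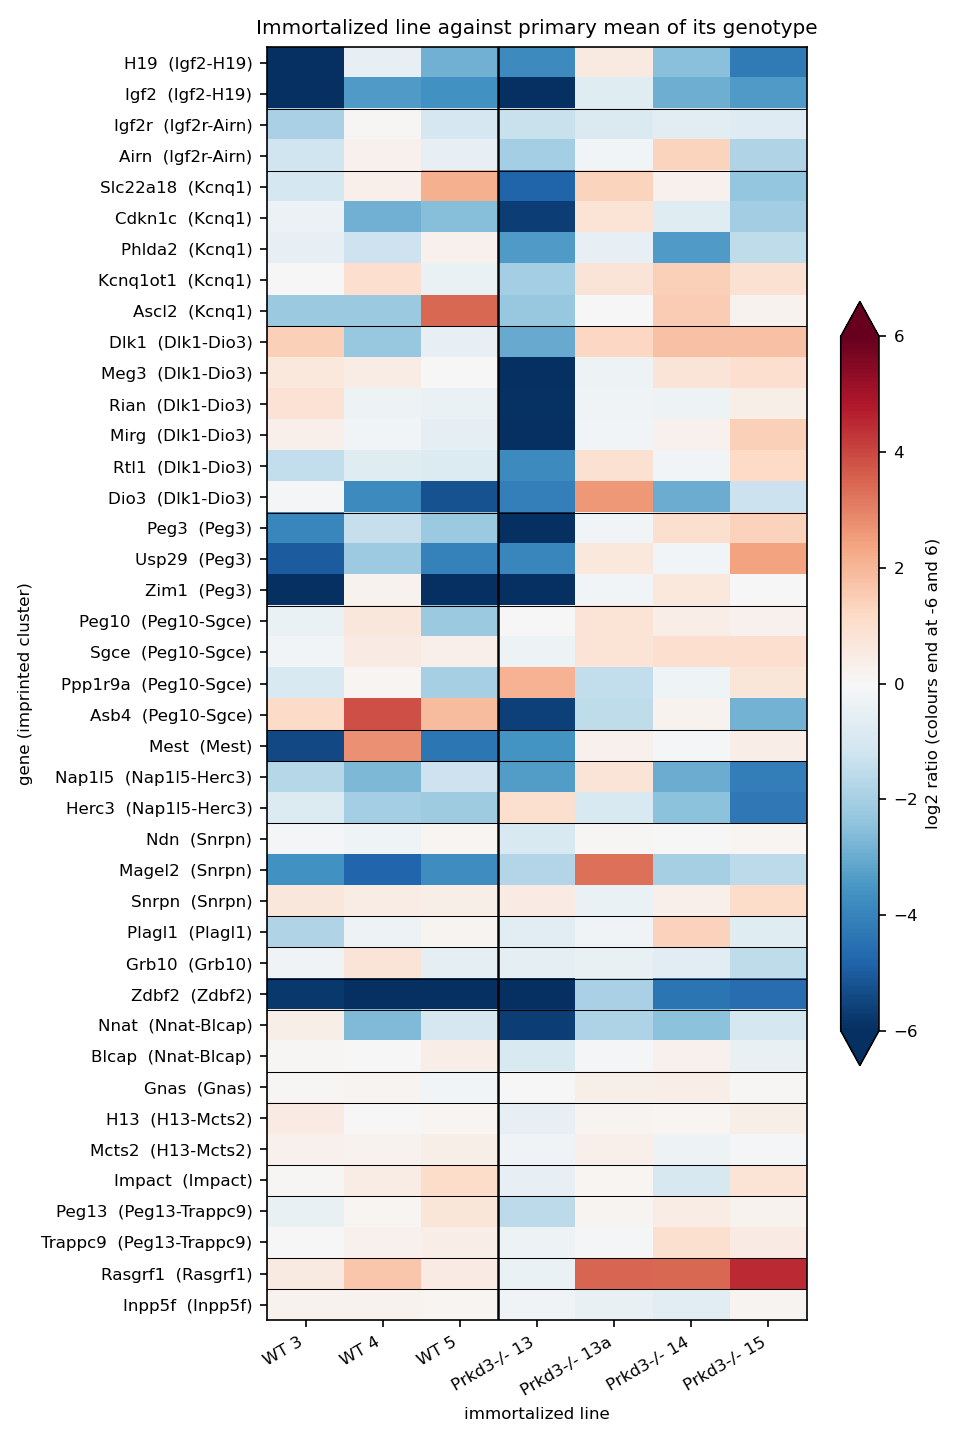
Log2 ratio of each of the 7 immortalized lines (columns) to the mean log2 CPM of the primary libraries of its genotype, for all 41 imprinted genes (rows, grouped by cluster); blue is lower, red is higher, and colours end at -6 and 6. Zdbf2 is blue in every line, Prkd3-/- line 13 has 20 genes at least 4-fold below, and line 13a has 0.

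Zdbf2, a paternally expressed zinc finger gene on chromosome 1 (63273265 to 63314576, plus strand, mm10), was the 1 member past the thresholds. It stood at 14.1, 13.9 and 13.1 CPM in the WT primary libraries of clones 3, 4 and 5 and at 0.232, 0.155 and 0.200 CPM in the lines, which held 14, 9 and 13 counts. The 3 lines were close to each other and far below every primary library, and Zdbf2 fell (Log2FC −6.15, SE 0.20, edgeR adjusted p = 0.000254). With the clone number as a block the Log2FC was −6.16 and the edgeR adjusted p was 0.0184, which misses the threshold of 0.01, and no gene passed in that fit. In Prkd3-/- it stood at 6.01, 17.1 and 7.89 CPM in primary libraries 13, 14 and 15 and at 0.111, 2.45, 0.436 and 0.374 CPM in lines 13, 13a, 14 and 15. All 4 lines lay below all 3 primary libraries, with line 13a closest to them (Log2FC −3.60, SE 1.00, edgeR adjusted p = 0.582).

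Igf2, the fetal growth factor transcribed from the paternal copy on chromosome 7 (142650766 to 142666816, minus strand), stood at 3579, 3393 and 2739 CPM in WT primary libraries and at 0.564, 300.5 and 256 CPM in lines 3, 4 and 5. Every line was lower, and line 3 was nearly without Igf2 (34 counts). Prkd3-/- primary libraries held Igf2 at 1175, 878 and 648 CPM and lines at 0.612, 528, 113 and 84.0 CPM, for lines 13, 13a, 14 and 15. The groups did not overlap there either, and line 13 held 33 counts. The Log2FC was −4.16 (SE 1.74, edgeR adjusted p = 0.267) in WT and −2.30 (SE 1.41, edgeR adjusted p = 0.832) in Prkd3-/-, and neither passed the test. Without Prkd3-/- line 13a it was −3.75 there. Of the exon bases of Igf2, 64.5% are shared with Gm49394 and Igf2os, and WT read pairs were counted for each gene they overlapped, without strand.

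H19, the maternally expressed noncoding RNA next to Igf2 (142575529 to 142578143, minus strand), stood at 3683, 3668 and 3099 CPM in WT primary libraries and at 1.82, 2490.0 and 475 CPM in lines 3, 4 and 5. The line that was nearly without Igf2 was also nearly without H19, while line 4 kept H19 near the primary level with Igf2 well below it. In Prkd3-/- primary libraries H19 stood at 1565, 1924 and 636 CPM, and in lines 13, 13a, 14 and 15 at 86.9, 1817, 217 and 66.2 CPM. There the groups overlapped through line 13a. The Log2FC was −1.85 (SE 1.76, edgeR adjusted p = 0.617) in WT and −1.32 (SE 1.14, edgeR adjusted p = 0.862) in Prkd3-/-. It was −3.89 without WT line 4 and −3.46 without Prkd3-/- line 13a. Genes within 2 Mb of Igf2 and H19 that are in no imprinted list had median log2 ratios between −0.11 and 0.02 in WT lines and between −0.75 and −0.10 in Prkd3-/- lines. The lowest of these was in line 14, where chromosome 7 as a whole had a median of −0.63.

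Igf2r, Grb10 and Cdkn1c are maternally expressed brakes on growth. Igf2r, the receptor that clears IGF2, stood at 859, 862 and 810.0 CPM in WT primary libraries and at 220.3, 894 and 414 CPM in lines 3, 4 and 5. Lines 3 and 5 were lower and line 4 was just above the primary range (Log2FC −0.77, SE 0.50, edgeR adjusted p = 0.460; −1.44 without line 4 and −0.40 without line 3). In Prkd3-/- Igf2r stood at 714, 768 and 654 CPM in primary libraries and at 286, 385, 450.1 and 420.1 CPM in lines 13, 13a, 14 and 15. The 4 lines all lay below the primary libraries, but the change did not pass (Log2FC −0.88, SE 0.20, edgeR adjusted p = 0.463). Grb10, an adaptor that dampens insulin and IGF1 receptor signalling, stood at 894, 945 and 844 CPM in WT primary libraries and at 766, 1537 and 617 CPM in the lines, above the primary libraries in line 4 and below them in lines 3 and 5 (Log2FC 0.08, SE 0.35, edgeR adjusted p = 0.925; −0.07 when scaled by library size alone). Grb10 in Prkd3-/- stood at 845, 1033 and 708 CPM in primary libraries and at 559, 635, 537 and 297 CPM in lines 13, 13a, 14 and 15. Again all lines were lower without passing (Log2FC −0.76, SE 0.29, edgeR adjusted p = 0.711). Cdkn1c, a maternally expressed CDK inhibitor outside the naming rule and chosen after its values were seen, stood at 79.9, 81.3 and 71.9 CPM in WT primary libraries and at 59.9, 10.5 and 13.03 CPM in the lines. All WT lines were lower. In Prkd3-/- primary libraries it ranged from 18.1 to 67.2 CPM and in the lines from 0.612 (line 13) to 54.5 CPM (line 13a). An antisense gene shares 30.7% of the exon bases of Cdkn1c.

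**Figure D2:**
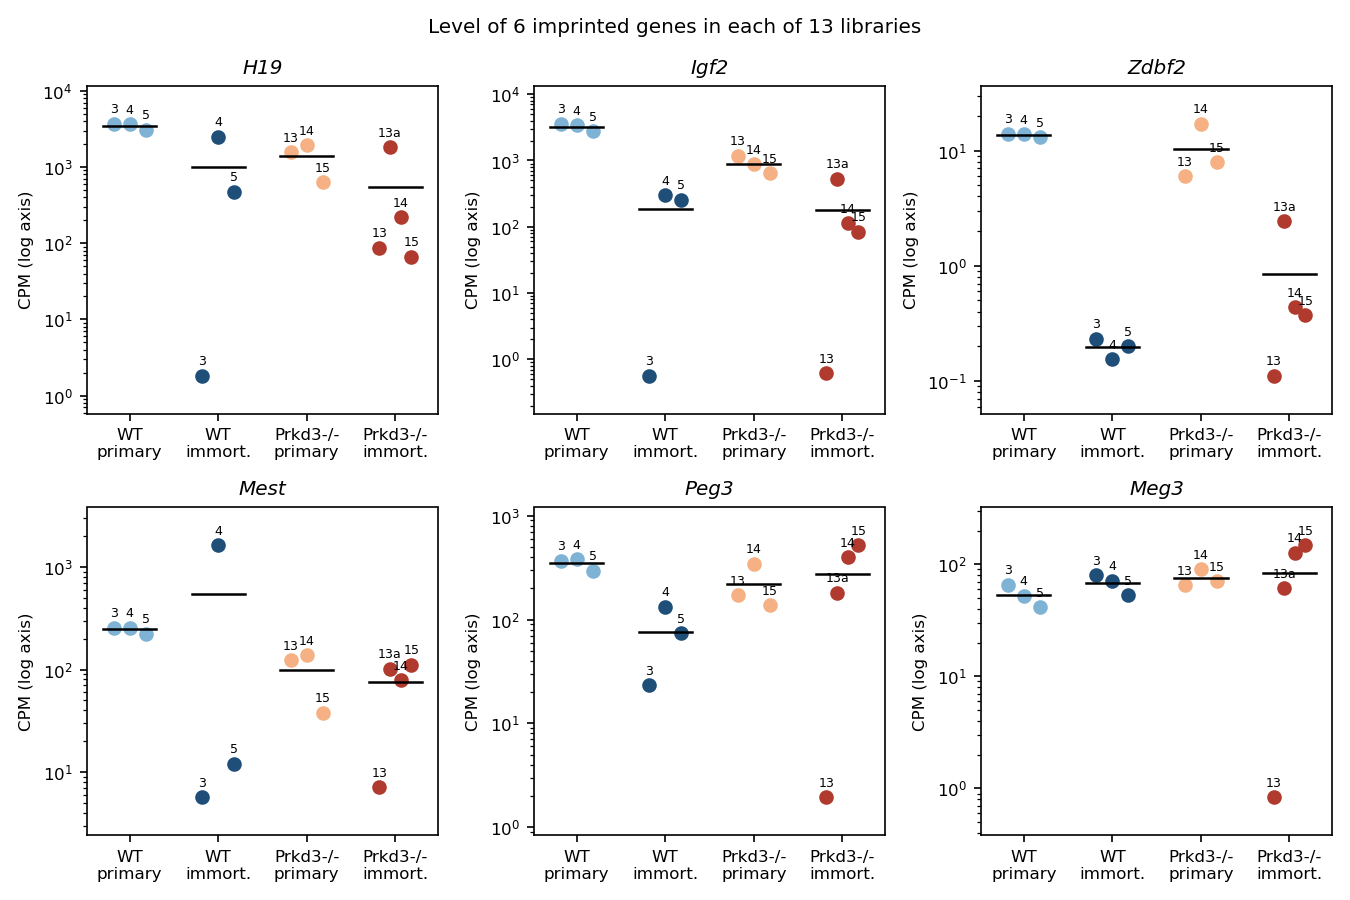
CPM (log axis) of H19, Igf2, Zdbf2, Mest, Peg3 and Meg3 in each of the 13 libraries, with points labelled by clone or line number and a bar at the mean of each group. In WT lines the highest line is 1.496-fold the lowest for Zdbf2 and 1.504-fold for Meg3, and the other 4 genes differ by more, and Meg3 is low in Prkd3-/- line 13 alone (0.834 CPM).

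None of the 12 partners of the IGF2 pathway passed the edgeR thresholds in either genotype, in which 12 were tested. In WT, 7 had a negative and 5 a positive Log2FC (median −0.06), and in Prkd3-/- 4 were negative and 8 positive (median 0.17). The gene of the list with the smallest p in WT was Igfbp5, a binding protein of IGFs, at 378 ± 32.3 CPM in primary libraries and 6.77 ± 5.25 CPM in lines (SD, n = 3 each; Log2FC −5.84, edgeR adjusted p = 0.0252), and DESeq2 passed it. Insr (Log2FC 0.33) and Igfbp3 (Log2FC −3.62) followed. In Prkd3-/- the smallest p belonged to Irs2 (Log2FC 0.83), Igfbp3 (Log2FC −2.18) and Igfbp2 (Log2FC 3.36), with edgeR adjusted p of 0.779 or more.

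The Peg3 cluster on chromosome 7 was low in WT lines and in Prkd3-/- line 13. Usp29, a paternally expressed ubiquitin protease gene, stood at 0.880, 1.08 and 0.990 CPM in WT primary libraries and at 0.0166, 0.207 and 0.0461 CPM in lines 3, 4 and 5 (1, 12 and 3 counts). All lines were lower, with Log2FC −3.48 (SE 0.75) and an edgeR adjusted p of 0.0625. In Prkd3-/- Usp29 stood at 0.692, 2.68 and 0.614 CPM in primary libraries and at 0.0556, 1.62, 0.918 and 5.68 CPM in lines 13, 13a, 14 and 15. Line 13 was the lowest and line 15 the highest of the 7 libraries (Log2FC 0.65, SE 1.21, edgeR adjusted p = 0.932). The neighbours Peg3 and Zim1, zinc finger genes of opposite parental origin, were chosen after their values were seen. Peg3 stood at 368, 381 and 295 CPM in WT primary libraries, at 23.3, 132 and 73.8 CPM in WT lines, and at 1.95 CPM in Prkd3-/- line 13 beside 181 to 519 CPM in the other 3 lines. Zim1, from the maternal copy, stood at 18.1 to 25.5 CPM in WT primary libraries. It kept 26.3 CPM in WT line 4 but held 2 counts in line 3, 8 counts in line 5 and 0 counts in Prkd3-/- line 13, which allows up to 0.0570 CPM. The median of genes within 2 Mb stayed between −0.38 and 0.08 on the log2 scale in all 7 lines.

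Nap1l5 and its host Herc3, on chromosome 6, were both below all primary libraries of their genotype in 5 of the 7 lines. Nap1l5, a paternally expressed retrogene, stood at 0.940, 0.727 and 0.902 CPM in WT primary libraries and at 0.249, 0.121 and 0.353 CPM in lines 3, 4 and 5. All lines were lower (Log2FC −1.85, SE 0.42, edgeR adjusted p = 0.0723). The Prkd3-/- values were 0.553, 0.948 and 0.669 CPM in primary libraries and 0.0556, 1.21, 0.0778 and 0.0267 CPM in lines 13, 13a, 14 and 15, with 3, 88, 5 and 2 counts. Line 13a was above the primary libraries and the others below them (Log2FC −1.06, SE 1.21, edgeR adjusted p = 0.886; −3.73 without line 13a). Herc3, an E3 ligase gene, stood at 20.6, 21.8 and 23.2 CPM in WT primary libraries and at 12.5, 5.31 and 5.04 CPM in the lines. Again all lines were lower (Log2FC −1.56, SE 0.38, edgeR adjusted p = 0.0848). In Prkd3-/- Herc3 stood at 19.1, 13.7 and 25.4 CPM in primary libraries and at 36.6, 9.84, 3.38 and 0.949 CPM in lines 13, 13a, 14 and 15. Line 13 was the highest of these 7 libraries and line 15 the lowest (Log2FC −0.61, SE 1.03, edgeR adjusted p = 0.922; −2.03 without line 13 and −0.22 without line 15).

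Mest, a paternally expressed hydrolase-fold gene, split the WT lines. It stood at 256, 256 and 224 CPM in WT primary libraries and at 5.71, 1619.7 and 12.1 CPM in lines 3, 4 and 5. Line 4 was above and lines 3 and 5 were far below the primary libraries, so the Log2FC of 1.11 (SE 1.89, edgeR adjusted p = 0.794) follows line 4, and without that line it was −4.82. In Prkd3-/- Mest stood at 123, 138 and 37.8 CPM in primary libraries and at 7.12, 102.03, 78.6 and 112 CPM in lines 13, 13a, 14 and 15. Line 13 was the only one below the primary range (Log2FC −0.40, SE 0.82, edgeR adjusted p = 0.941). Of the Mest exon bases, 23.1% are shared with the antisense gene Copg2.

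In the Snrpn cluster the members did not move together. Ndn, a growth suppressor gene of the MAGE family, stood at 98.3, 96.5 and 93.6 CPM in WT primary libraries and at 88.5, 81.0 and 103 CPM in the lines. These groups overlapped (Log2FC −0.12, SE 0.11, edgeR adjusted p = 0.617). The Prkd3-/- libraries had Ndn at 89.7, 147 and 102.4 CPM in primary libraries and at 58.3, 118, 111 and 121 CPM in lines 13, 13a, 14 and 15, where line 13 was lowest (Log2FC −0.14, SE 0.30, edgeR adjusted p = 0.944). Magel2, of the same gene family, stood at 0.212, 0.412 and 0.601 CPM in WT primary libraries and at 0.0166, 0 and 0.0154 CPM in the lines. All lines were lower, with 2 counts in the 3 lines against 86 counts in the primary libraries, a ratio of 36.7 at equal depth (95% interval 9.86 to 308 from counting error only; edgeR adjusted p = 0.0203). In Prkd3-/- Magel2 stood at 0.196, 2.03 and 0.251 CPM in primary libraries and at 0.130, 4.76, 0.109 and 0.147 CPM in lines 13, 13a, 14 and 15. Line 13a and primary library 14 were the high ones, and they also had the highest macrophage marker sums of their groups (164 and 1048 CPM), whose part was not tested (Log2FC 0.64, SE 1.58, edgeR adjusted p = 0.955; −0.49 with the clone number as a block). Snrpn itself, a spliceosome gene that shares 34.1% of its exon bases with its neighbours, ranged from 17.1 to 19.2 CPM in WT primary libraries and from 22.9 to 28.8 CPM in the lines.

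Nnat, a paternally expressed membrane proteolipid gene, stood at 3.96, 3.76 and 3.85 CPM in WT primary libraries and at 4.98, 0.604 and 1.94 CPM in the lines, above in line 3 and below in the others (Log2FC −0.67, SE 0.69, edgeR adjusted p = 0.650; −1.62 without line 3 and −0.20 without line 4). Among Prkd3-/- libraries it stood at 6.05, 25.9 and 4.77 CPM in primary libraries and at 0.167, 2.502, 1.66 and 4.42 CPM in lines 13, 13a, 14 and 15. All lines were lower (Log2FC −2.47, SE 0.99, edgeR adjusted p = 0.733; −1.30 without primary library 14). Rasgrf1, a paternally expressed Ras exchange factor gene that is known mainly from brain, was near the limit of detection in WT, with 0 to 3 counts in each library. In Prkd3-/- it had 8, 4 and 0 counts in primary libraries 13, 14 and 15 and 1, 34, 29 and 72 counts in lines 13, 13a, 14 and 15. Lines 13a, 14 and 15 were above the primary libraries and line 13 was within their range (Log2FC 3.27, SE 1.23, edgeR adjusted p = 0.711).

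**Figure D3:**
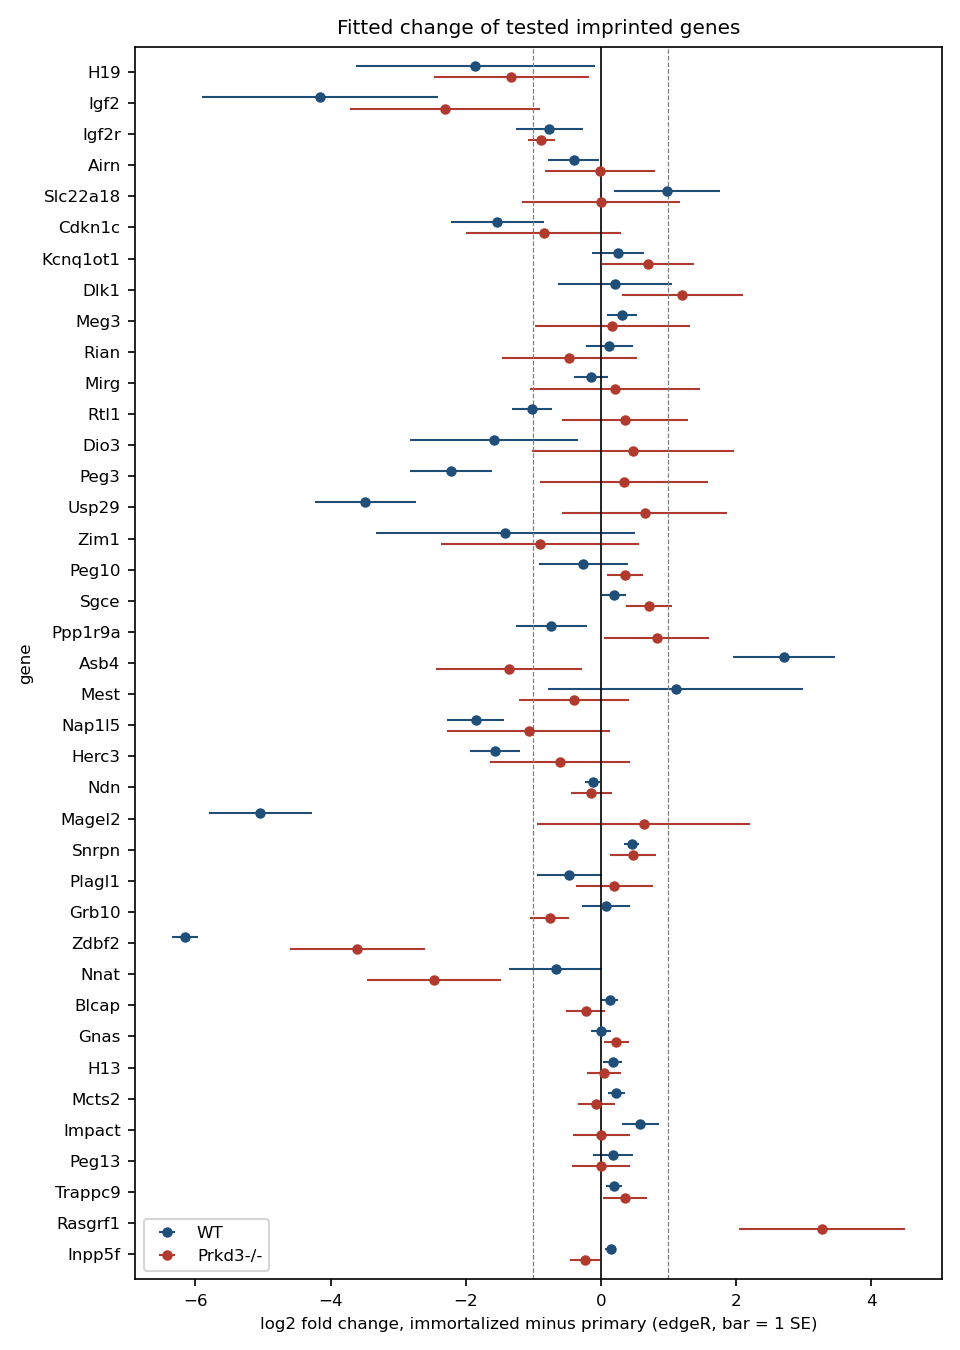
Fitted Log2FC of immortalized against primary MEFs (points, with bars of 1 SE, from edgeR) for the members tested in WT (blue) and in Prkd3-/- (red); dashed lines mark a Log2FC of -1 and 1. Zdbf2 in WT, at -6.15, is the one member that passed the thresholds, and its bar is narrow beside those of H19, Igf2 and Mest.

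The Dlk1-Dio3 cluster on chromosome 12 varied between lines, and Prkd3-/- line 13 was the 1 line in which all 6 of its members lay at least 4-fold below the primary mean. Dlk1, a Notch-like surface protein gene that restrains adipogenesis, stood at 207, 215 and 226 CPM in WT primary libraries and at 582, 44.0 and 152 CPM in lines 3, 4 and 5. It was higher in line 3 and lower in lines 4 and 5 (Log2FC 0.22, SE 0.84, edgeR adjusted p = 0.916; −0.51 with the clone number as a block). Among Prkd3-/- libraries it stood at 128, 86.1 and 94.8 CPM in primary libraries and at 12.5, 238, 349 and 347 CPM in lines 13, 13a, 14 and 15. Line 13 lay below all primary libraries and the other 3 lines above them (Log2FC 1.21, SE 0.89, edgeR adjusted p = 0.845). The maternally expressed noncoding RNAs of the cluster, chosen after their values were seen, separated line 13 more sharply. Meg3 stood at 64.7, 90.5 and 70.3 CPM in Prkd3-/- primary libraries and at 0.834, 60.9, 127 and 148 CPM in lines 13, 13a, 14 and 15. Rian, the host of C/D snoRNAs, stood at 196 to 303 CPM in the primary libraries, 3.74 CPM in line 13 and 183.3 to 285 CPM in the other lines. Mirg, a microRNA host, had 1 count in line 13 and 318 to 987 counts in the other lines. Rtl1 and Dio3, from the paternal copy, were also below all primary libraries in line 13, at 0.0556 and 0.148 CPM. In WT, Meg3 stood at 41.2 to 65.8 CPM in primary libraries and 53.2 to 80.1 CPM in lines, and Dio3 stood at 7.71 CPM in line 3 but at 0.552 and 0.200 CPM in lines 4 and 5.

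In Prkd3-/- line 13 all 6 members of the Dlk1-Dio3 cluster had log2 ratios to the primary mean between −7.20 and −3.02. The 80 other genes within 2 Mb of the cluster had a median log2 ratio of −0.06 in that line, and chromosome 12 as a whole had −0.02. Members of both parental origins were among the 6. Flanks of other clusters were not level in line 13. The 6 genes tested beside Grb10 had a median of −4.93, with Grb10 itself at −0.61, and the 25 genes beside Peg10 and Sgce had −1.49. In that last cluster Asb4 stood at 0.0927 CPM in line 13, with a log2 ratio of −5.62. The other members did not fall with it, with −0.01 for Peg10, −0.30 for Sgce and 2.08 for Ppp1r9a.

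**Figure D4:**
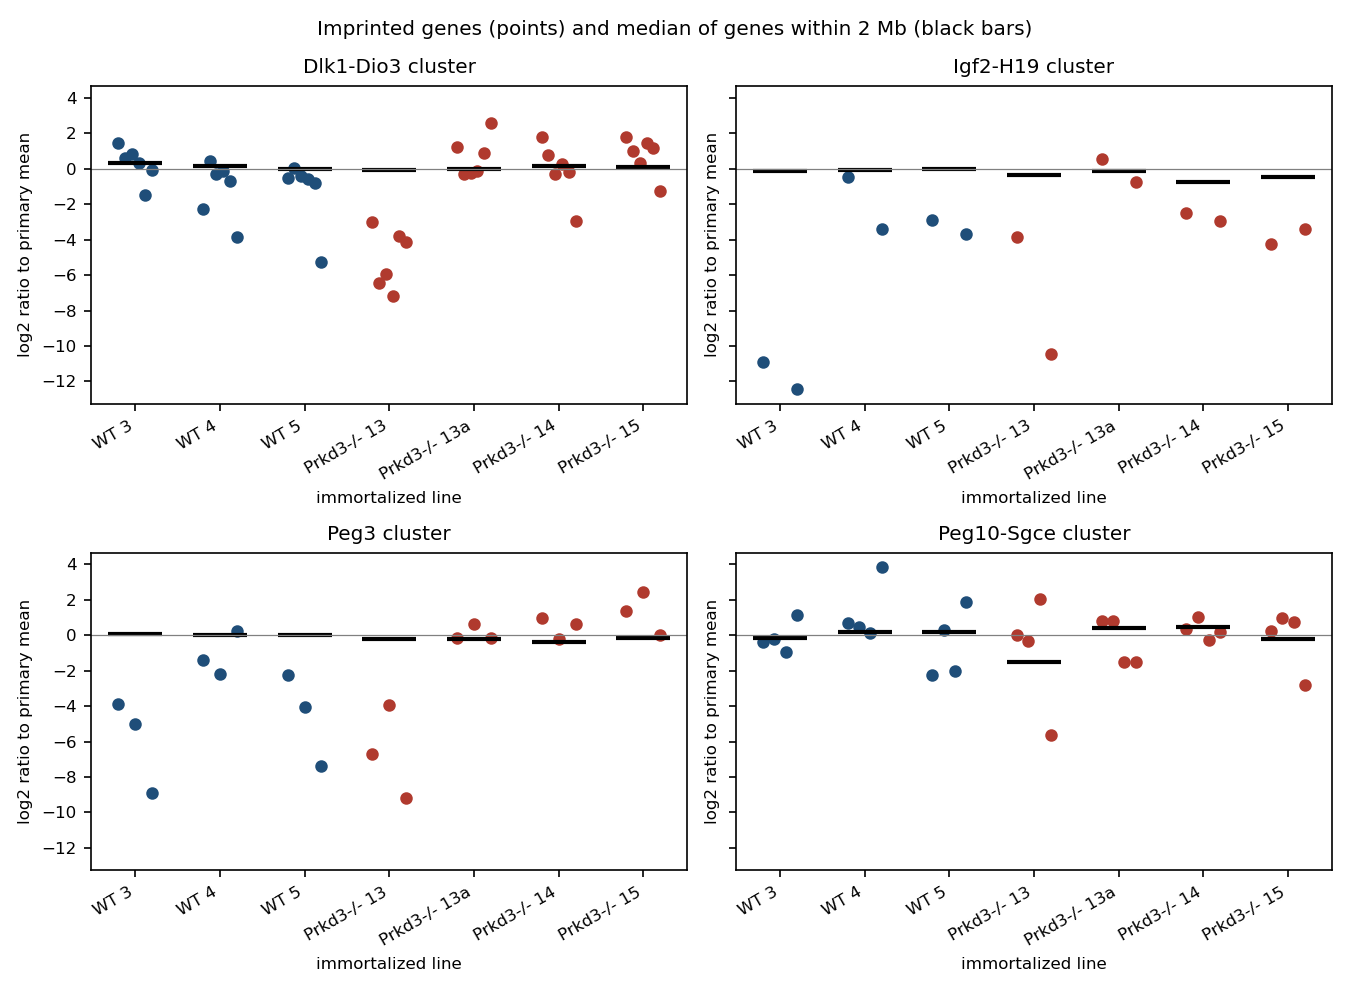
Log2 ratio to the primary mean of the genotype for the members of 4 clusters in each of the 7 lines (points, blue WT and red Prkd3-/-), with black bars at the median of other genes within 2 Mb. In Prkd3-/- line 13 the 6 Dlk1-Dio3 members lie between -7.20 and -3.02 while the bar is at -0.06.

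Lines 13 and 13a carry the same clone number, yet they stood at opposite ends of the set. Of the 39 members tested in Prkd3-/-, 21 were at least 4-fold lower in line 13 than in line 13a (13.7% of all genes), with a median log2 difference of −3.79 beside −0.05 over all genes, and 1 (Ppp1r9a, an actin-binding scaffold gene) was at least 4-fold higher (2.19% of all genes). The 2 libraries differed far beyond sampling noise, with a chi-square per degree of freedom of 478 over 19311 genes, so they were kept as separate samples. That value lay within the range of the other pairs of Prkd3-/- lines, 325 to 779. Pairs of Prkd3-/- primary libraries had 46.7 to 377. Macrophage markers summed to 17.2 CPM in line 13, with 7 of 10 at 0, and to 164 CPM in line 13a, with 0 at 0. Markers of endothelium (1.502 and 13.7 CPM), chondrocytes (114 and 900.1 CPM) and neurons (13.9 and 69.2 CPM) were also lower in line 13 than in line 13a. So were those of fibroblasts (30012 and 44759 CPM), skeletal muscle (0.111 and 0.481 CPM), epithelium (1.15 and 4.32 CPM) and hepatoblasts (0.871 and 1.58 CPM). The part of these cells was not tested. The comparison rests on 1 library each and has no replicate.

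**Figure D5:**
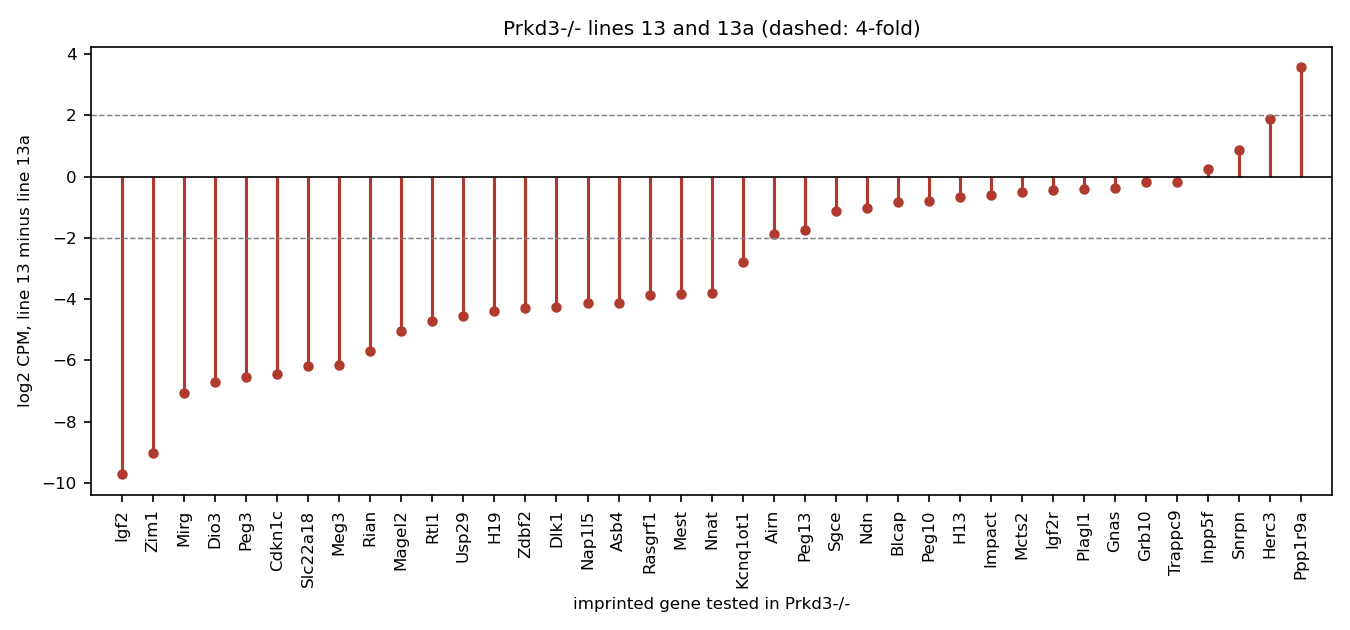
Difference in log2 CPM between Prkd3-/- immortalized line 13 and line 13a for the 39 members tested in Prkd3-/-, ordered by size, with dashed lines at a 4-fold difference either way. Below the lower line lie 21 members, led by Igf2 and Zim1, and above the upper line lies 1, Ppp1r9a.

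Of the 14 members that stayed within 4-fold of the primary mean in every line, Igf2r, Grb10, Ndn and Snrpn are given above. Gnas, which encodes the stimulatory G protein alpha subunit, stood at 1279, 1236 and 1230.5 CPM in WT primary libraries and at 1327, 1418 and 1118 CPM in lines 3, 4 and 5. The groups overlapped (Log2FC 0.00, SE 0.14, edgeR adjusted p = 0.991; −0.13 when scaled by library size alone). Among Prkd3-/- libraries it stood at 1246, 1254 and 1233 CPM in primary libraries and at 1236, 1585, 1665 and 1321 CPM in lines 13, 13a, 14 and 15 (Log2FC 0.23, SE 0.19, edgeR adjusted p = 0.857). Of its exon bases 21.6% are shared with antisense genes, Nespas among them, and its imprinted isoforms are counted with it. The others were H13 (a signal peptide peptidase gene), Mcts2 (a retrogene copy of Mcts1 that lies within H13), Blcap, Trappc9 and Peg13, Sgce, Impact, Inpp5f and Plagl1. Their log2 ratios ran from −1.83 (Plagl1 in WT line 3) to 1.39 (Plagl1 in Prkd3-/- line 14).

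The groups were fully apart in a minority of members. Every WT line lay below every primary library in 10 of the 38 members (15.7% of all genes), which were H19, Igf2, Cdkn1c, Rtl1, Peg3, Usp29, Nap1l5, Herc3, Magel2 and Zdbf2, and above in 5 (16.6%), which were Asb4, Snrpn, Mcts2, Impact and Inpp5f. In Prkd3-/- the lines lay below in 5 of 39 (5.53%), Igf2, Igf2r, Grb10, Zdbf2 and Nnat, and above in 0 (3.83%). Igf2 and Zdbf2 were below in both genotypes (2.64% of 19311 genes). Scaled by library size alone, 2 members lay above in WT (5.99% of all genes) and 13 below (25.7%). Without line 3 the WT counts were 15 below (24.1% of all genes) and 9 above (26.5%), and without line 4 there were 17 below (20.7%). In Prkd3-/- the count above was 6 without line 13 (8.03% of all genes), and without line 13a it was 9 below (9.78%) and 1 above (5.95%).

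The spread between lines was wider than that between primary libraries for 35 of 38 members in WT (89.0% of all genes) and 38 of 39 in Prkd3-/- (82.8%). The median SD of log2 CPM among the members was 0.093 in primary libraries and 0.72 in lines of WT, beside 0.082 and 0.33 over all genes. For Prkd3-/- the values were 0.37 and 1.89, beside 0.26 and 0.55. A second list of 32 other imprinted genes, described below, had smaller medians in the lines. They were 0.058 in primary libraries and 0.45 in lines of WT, and 0.32 and 0.66 in Prkd3-/-. The wide spread of the members is thus not shown for imprinted genes in general. No test was made of these differences, and each SD rests on 3 or 4 libraries.

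By parental origin, the 21 paternally expressed members tested in WT had 13 negative and 8 positive Log2FC (median −0.40), and the 11 maternally expressed ones 6 and 5 (median −0.14). The 6 with an isoform or tissue imprint had 1 and 5 (median 0.14). In Prkd3-/- the 22 paternal members had 9 negative and 13 positive (median 0.27), the 11 maternal ones 8 and 3 (median −0.76) and the other 6 had 3 and 3 (median −0.09). The order of the origins thus differed between genotypes, and it was not tested.

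No member passed the test of a difference between genotypes in the immortalization effect. In a fit of all 13 libraries, 0 of 40 members and 0 of 21197 genes passed an edgeR adjusted p of 0.05 (0%), and 4 members and 841 genes (3.97%) had an unadjusted edgeR p under 0.05. DESeq2 passed 37 of 36462 genes (0.101%) and no member. The members with the smallest p were Asb4 (difference of Log2FC, Prkd3-/- minus WT, −4.07, SE 1.45), Usp29 (4.13, SE 1.69), Magel2 (5.69, SE 2.38) and Zdbf2 (2.56, SE 1.15), each with an edgeR adjusted p of 1.00. With SEs this wide, differences of this size did not pass in the 13 libraries, and the size that could be detected was not tested.

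Among 32 other imprinted genes, 24 were tested in WT and 23 in Prkd3-/-, and none passed with edgeR. DESeq2 passed 3 of the 32 in WT, Klf14 and Calcr lower (3.71% of all genes) and Cobl higher (0.375%), and none in Prkd3-/- (0.552%). Cobl stood at 6.63 ± 0.243 CPM in WT primary libraries and 30.05 ± 20.2 CPM in WT lines (SD, n = 3 each). Calcr, at 0.0455 to 0.230 CPM in WT primary libraries and 0 CPM in WT lines, was not among the genes tested with edgeR. In WT the smallest p belonged to Klf14, which had 0 counts in all lines, Tssc4 (48.4 ± 0.384 CPM in primary libraries, 32.9 ± 4.74 CPM in lines, edgeR adjusted p = 0.0452) and Slc38a4 (97.2 ± 1.41 and 56.1 ± 16.3 CPM, edgeR adjusted p = 0.0861), with n = 3 and SD throughout. In Prkd3-/- they were Cd81, Osbpl5 and Nespas, with edgeR adjusted p of 0.650 or more. Of 12 genes that maintain imprints, 10 were tested in each genotype and none passed with edgeR in either. DESeq2 passed 0 of the 12 in WT and 1 in Prkd3-/-, Dppa3, lower (Log2FC −6.05, DESeq2 adjusted p = 0.00991, beside 0.473% of all genes lower). Dppa3 stood at 0.0692 to 0.319 CPM in Prkd3-/- primary libraries and at 0 CPM in the lines. Its low counts kept it out of the edgeR test. Dnmt1, the maintenance DNA methyltransferase, stood at 108 ± 6.12 CPM in WT primary libraries and 87.9 ± 28.005 CPM in WT lines (SD, n = 3 each; edgeR adjusted p = 0.465), ahead of Smchd1 and Setdb1. In Prkd3-/- the smallest p belonged to Ctcf (Log2FC 0.42), Zfp57 (Log2FC 0.61) and Zfp445, with edgeR adjusted p of 0.812 or more.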

How the data were processed

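Poly-A RNA was sequenced in pairs. For WT, the authors mapped reads to mm10 with STAR 2.7.10a and SAMtools 1.18 and assigned pairs to the genes of Ensembl release 102 by featureCounts (Subread 2.0.6), without strand and for every gene a pair overlapped. The counting command of the table labelled Prkd3-/- is not given in the sources used here, but its genes and gene lengths are those of the WT table. The authors deposited raw counts, which were used as they stand, from 35273408 to 100441756 per library. The floor of 3 counts and all intervals cover counting error only.

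From these counts, separate edgeR 4.0.16 fits (R 4.3.3) were made for WT and Prkd3-/- (quasi-likelihood, TMM, filterByExpr, robust, Benjamini-Hochberg over all genes tested) at an adjusted p under 0.01 and an absolute Log2FC of at least 1. The difference between genotypes was fitted over 13 libraries at 0.05. CPM use TMM factors set jointly over the 13 libraries. The scripts were tested on simulated data. DESeq2 1.42.0, limma 3.58.1, other scalings and filters, the replicate block, and each library left out were alternatives. WT samples with 1 clone number come from 1 embryo, so the numbers pair them. The correlations of their deviations from the group means were −0.04, 0.04 and −0.05, and in Prkd3-/- they were 0.16, −0.30 (line 13a), 0.09 and 0.04. In Prkd3-/- nothing else says that samples came from separate cultures, and p-values there measure the spread between these samples.

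Values in every library were given for members past the thresholds, members whose groups did not overlap in both genotypes in 1 direction, the 8 highest by mean FPKM and the 5 with the smallest p in each genotype. Of other lists, the 3 genes with the smallest p were named. The members and lists were chosen with earlier results of these data known.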

Additional observations from a re-analysis of the deposited data

Results flagged for a closer look

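Of the 39 members tested in Prkd3-/-, 8 had 1 of the 4 immortalized lines standing apart from the others on the log2 CPM scale by Dixon's ratio of the gap to the whole range, where chance marks about 1 in 20 genes and 5.39% of all 20298 genes were so marked. Line 13 was the lowest for Dlk1 (0.885), Rian (0.898), Zim1 (0.917), Sgce (0.848), Mest (0.872), Ndn (0.873) and Peg13 (0.878), as it was for 1.64% of all genes. Line 13a was the highest for Magel2 (0.926), and for 0.468% of all genes. For Ndn, Sgce and Peg13 line 13 stood at 58.3, 26.03 and 10.8 CPM beside 111, 56.8 and 36.6 CPM in the next line, with log2 ratios of line 13 to the primary mean of −0.92, −0.30 and −1.58. For Zim1 the ratio rests on 0 counts in line 13. The genes share their libraries, so these marks are not independent of each other.

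Asb4, a maternally expressed substrate adaptor gene of an E3 ligase, was higher in every WT line and lower in every Prkd3-/- line than the primary library of the same clone, with log2 ratios of 0.92, 3.73 and 2.25 in WT lines 3, 4 and 5. It stood at 6.07, 5.69 and 4.07 CPM in WT primary libraries and at 11.5, 75.7 and 19.3 CPM in WT lines. In Prkd3-/- it stood at 3.63, 8.74 and 4.60 CPM in primary libraries and at 0.0927, 1.84, 6.07 and 0.735 CPM in lines 13, 13a, 14 and 15. The difference of the Log2FC was −4.07 and did not pass (edgeR adjusted p = 1.00).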

How the results depend on the processing

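Setting by setting, 417 values kept their direction and their side of the threshold, 25 reversed, 8 passed only under the alternative and 2 passed only in the main fit. The number of members past the thresholds in WT, 1 as reported, was 7 with DESeq2, 0 with at least 10 counts in every library (Zdbf2 has 9 in line 4 and is left out), 0 with the replicate block, 0 with all 13 libraries in one fit, 2 at an adjusted p under 0.05 and between 1 and 5 with 1 library left out (0.237% to 3.66% of all genes). In Prkd3-/- it was 1 with DESeq2 in place of 0. Zdbf2 in WT kept a Log2FC between −6.28 and −6.01 with 1 library left out. Its edgeR adjusted p was 0.0184 with the replicate block and 0.0306 with all 13 libraries in one fit, both above 0.01. The replicate block ended no other call, since no other member had passed. Groups that do not overlap, counted under settings chosen after seeing the data, were 2 higher and 13 lower in WT with library size alone (5.99% and 25.7% of all genes). With 1 library left out, members with every line higher ranged from 5 to 9 and with every line lower from 10 to 17 in WT (18.6% to 27.0% and 16.7% to 24.1% of all genes), and from 0 to 6 and 5 to 9 in Prkd3-/- (5.02% to 8.19% and 7.10% to 9.78%).

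Directions reversed for members near 0 or split between lines. In WT, Dlk1 was −0.51 with the replicate block and −0.50 with limma, Mest −3.28 and −2.41, Grb10 −0.033 and −0.023 (−0.066 with library size alone) and Gnas −0.0011 and −0.00030 (−0.13 with library size alone and −0.024 with at least 10 counts in every library). In Prkd3-/-, Usp29 was −0.28 with limma, and Magel2 −0.49 with the replicate block and −0.65 with limma. With 1 library left out, the Log2FC in WT ran from −1.16 to 0.72 for Dlk1, −4.82 to 1.70 for Mest, −0.41 to 0.32 for Grb10 and −0.068 to 0.092 for Gnas, and in Prkd3-/- from −0.61 to 1.66 for Usp29, −0.28 to 0.086 for Ndn and −2.67 to 2.52 for Magel2. The cause of these reversals was not tested beyond the library left out. Low counts limit Magel2, Usp29, Nap1l5 and Rasgrf1, and 3 or 4 lines a genotype limit every test.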
